A study of Mus musculus with 8 samples.

Results

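Axon guidance ligands and receptors were described in single nuclei of mouse forebrain. The genes were chosen by symbol: semaphorins, plexins, neuropilins, Slits, Robos, ephrins, Eph receptors, netrins, netrin-Gs, Unc5 receptors and Dcc, each with at least 20 unique molecular identifiers (UMIs, the count of distinct RNA molecules read) over all libraries. All 70 matching symbols reached that minimum, out of 54232 genes in the files, of which 28042 reached it. They fall into 14 families, among them 9 EphA and 5 EphB receptors, 9 plexins, 7 class 3 semaphorins, 5 genes of Unc5 and Dcc, 4 Robos and 3 Slits.

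The nuclei came from perilesional forebrain, a small cube of tissue beside the injury, of male Swiss Webster mice aged 10 weeks. Tissue was frozen before nuclei were taken, and 3' tags were counted on the 10x Chromium system. There were 4 groups of 2 libraries: control, BCAS, TBI (traumatic brain injury) and both surgeries together (BCAS+TBI). The labels give BCAS only as an abbreviation, which the title of the study ties to cerebral hypoperfusion, and the interval from surgery to tissue collection is not stated there. Replicates are called biological, but nothing states whether a library is 1 animal, so the p-values measure the spread between these libraries. The design asks what each surgery does alone and whether hypoperfusion changes the outcome of brain injury.

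Axon guidance genes encode secreted or membrane-bound cues and the receptors by which a growth cone reads them. Slits act through Robo receptors, netrins through Dcc and Unc5, class 3 semaphorins through neuropilins with plexins, other semaphorins directly through plexins, and ephrins through Eph receptors, where both partners can signal. In the adult brain many stay expressed, and they are known for roles in synapses, in blood vessels and in glia.

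Among the genes whose level in the highest class stood clear of the second, Robo4 and Sema3g were vascular and Plxnb3 and Unc5b were oligodendroglial, so stretches of their promoters are shown. Each is 170 bases, from 250 to 81 bases before the RefSeq transcription start, on build GRCm38.p6, read 5′ to 3′ on the strand of the gene. They lie at chr9:37401722-37401891 (Robo4, plus strand), chr14:31217623-31217792 (Sema3g, plus), chrX:73756853-73757022 (Plxnb3, plus) and chr10:60831662-60831831 (Unc5b, minus). Capitals mark the ETS core (GGAAG or its reverse CTTCC) in the 2 genes highest in endothelial-like nuclei, and the SOX site (ACAAAG or its reverse CTTTGT) in the 2 genes highest in oligodendrocyte-like nuclei.
Robo4: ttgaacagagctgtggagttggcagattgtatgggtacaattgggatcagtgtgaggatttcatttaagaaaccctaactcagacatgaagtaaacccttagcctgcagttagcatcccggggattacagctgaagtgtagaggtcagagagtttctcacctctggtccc
Sema3g: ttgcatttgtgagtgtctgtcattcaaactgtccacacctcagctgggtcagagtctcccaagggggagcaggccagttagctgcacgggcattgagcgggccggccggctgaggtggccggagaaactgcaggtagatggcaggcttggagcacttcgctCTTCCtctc
Plxnb3: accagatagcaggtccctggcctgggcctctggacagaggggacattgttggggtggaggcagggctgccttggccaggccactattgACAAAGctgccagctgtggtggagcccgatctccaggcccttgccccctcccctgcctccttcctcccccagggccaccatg
Unc5b: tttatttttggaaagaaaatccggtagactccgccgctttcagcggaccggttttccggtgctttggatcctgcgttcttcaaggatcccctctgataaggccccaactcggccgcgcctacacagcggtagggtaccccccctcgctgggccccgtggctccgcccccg
The ETS core stood in 48.8% of 32851 such windows, in 36 of the 60 members with a RefSeq entry and in 4 of the 7 endothelial-highest members with one. The SOX site stood in 11.6% of the windows and in 5 of the 60 members (Plxnb3, Efna4, Sema3d, Sema3a and Efna2). The Robo4 window holds no ETS core and the Unc5b window no SOX site in these letters. A match is a description of the sequence only.

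Each library held 6191 to 7882 barcodes. The libraries fell into 2 sets at the largest gap in total UMIs, each with 1 library of every group. Set 1 (control 1, BCAS 1, TBI 1 and BCAS+TBI 2) held 28118725 to 33363564 UMIs and set 2 (control 2, BCAS 2, TBI 2 and BCAS+TBI 1) held 42651388 to 56135192 UMIs. Mitochondrial UMIs made up 1.20% to 2.77% in set 1 and 0.511% to 1.04% in set 2. The 70 genes together took 0.875% to 0.968% of all UMIs in set 1 and 1.15% to 1.22% in set 2, ranges that did not overlap. Any 2 libraries shared 5 to 20 barcodes. Because the sets differ in depth, the tests below carry the library set as a term unless stated otherwise.

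After filtering, 45316 nuclei remained, and clusters were named from marker genes only, so classes are called endothelial-like and so on. Neuron classes without a marker name are called by their leading genes. Levels are in CPM: a gene's UMIs per 1000000 UMIs of that class in that library. They are given as the median of the 8 libraries with the lowest and highest, over the 36 classes where no library had under 10 nuclei (32866 nuclei). The summed markers of the glial, vascular and ventricular classes stood clear of all other classes: 16494 CPM against 1027 in the next class for endothelial-like nuclei, 22958 against 1037 for oligodendrocyte-like and 11380 against 308 for microglia-like nuclei. For 9 of the 25 classes with a marker list of their own, all of them neuronal, the summed list was lower than in another class, so those names are less certain. The clusters were made without the 70 genes.

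Levels were spread over neurons and other cells alike: by median, 35 genes were highest in a neuron class and 35 in a class other than neurons. Some of these highest levels rested on few UMIs. The fewest in a neuron class were 46 (Epha8), and those in other classes were as low as 5 (Epha1), 6 (Efna4) and 10 (Epha2). At a level of 20 CPM, 19 genes were present in 30 or more of the 36 classes, 31 in 6 to 29 classes, 14 in 1 to 5 classes and 6 in none (Efna3, Efna4, Epha1, Ntn5, Efna2 and Sema3b). Between 22 genes (choroid plexus-like) and 38 genes reached 20 CPM in a class. For 12 genes the range over libraries in the highest class did not overlap that in the second: Ntng2, Plxnb3, Ntng1, Unc5c, Sema3c, Unc5b, Sema3g, Robo4, Sema7a, Plxnb1, Efnb3 and Sema5b. For the other 58 the ranges of the highest and second class overlapped, so the order of those neighbours is not set beyond their spread. Classes are not randomised units, and no p-value is given for levels.

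**Figure D1:**
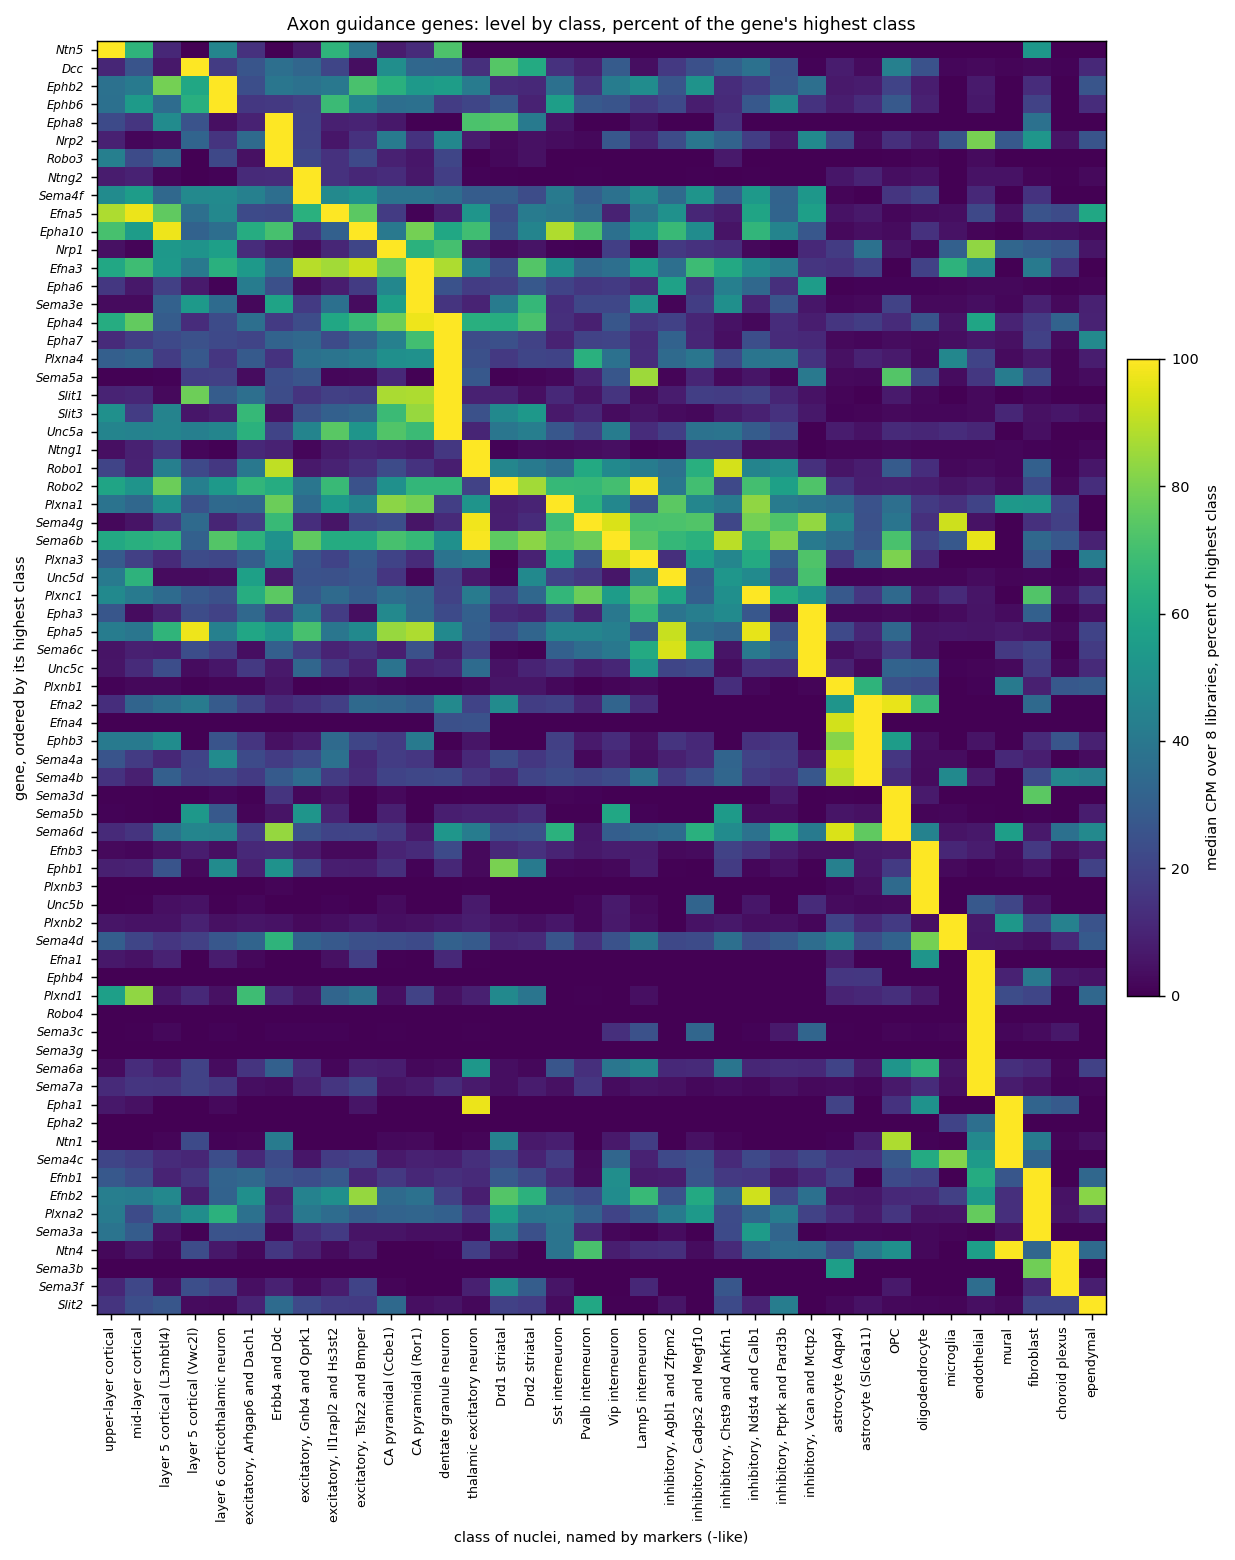
Level of each of the 70 genes (rows) in each of 36 classes (columns) as a percentage of the gene's own highest class, from median CPM over 8 libraries; rows are ordered by highest class. Robo4 and Sema3g fill a single column, while genes such as Robo1, Robo2, Epha6 and Dcc are above 20 CPM in all 36 classes.

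Endothelial-like nuclei, which line vessels, had the highest level of 8 genes, more than any other class: Robo4, Sema3g, Sema3c, Sema7a, Sema6a, Ephb4, Efna1 and Plxnd1. Robo4, the Robo receptor known from vessels, lay at 134 CPM (90.03 to 166). The libraries gave 127 and 144 in control, 120.3 and 93.7 in BCAS, 166 and 90.03 in TBI, and 140.5 and 159 in BCAS+TBI. Every library of every group was thus far above the second class, upper-layer cortical neuron-like nuclei, where the highest library reached 0.961 CPM. These nuclei held 147 of the 176 Robo4 UMIs in classes (83.5%), and 18 of the 36 classes held none. All deposited barcodes together held 950 Robo4 UMIs, so most lay outside these 36 classes.

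Sema3g, a secreted class 3 semaphorin, lay at 67.6 CPM (20.05 to 120.4) in endothelial-like nuclei, with 98 of its 124 UMIs in classes (79.0%). Over all deposited barcodes it had 510 UMIs. Its libraries gave 97.8 and 115 CPM in control, 20.05 and 59.6 in BCAS, 64.6 and 62.6 in TBI, and 120.4 and 70.7 in BCAS+TBI. In the second class, thalamic neuron-like nuclei, the highest library reached 1.502 CPM, below all 8. Sema3c, another secreted class 3 semaphorin, lay at 806 CPM (477 to 969) against 267 (123 to 359) in inhibitory neuron-like nuclei led by Cadps2 and Megf10. Sema7a, a semaphorin anchored in the membrane by a lipid, lay at 277 CPM (203 to 381) against 58.5 (32.3 to 70.5) in excitatory neuron-like nuclei led by Tshz2 and Bmper. For Sema3c and Sema7a too, all 8 endothelial-like values were above all 8 of the second class.

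Other vessel-associated receptors and ligands were shared with a second class. Ephb4, the venous Eph receptor, lay at 90.9 CPM (35.3 to 154) in endothelial-like nuclei and 36.7 (16.8 to 70.5) in fibroblast-like nuclei. Sema6a, a membrane semaphorin, lay at 543 CPM (401 to 676) in endothelial-like and 350.0 (240.1 to 409.7) in oligodendrocyte-like nuclei. Ephrin-A1 (Efna1) lay at 28.4 CPM (17.7 to 60.1) against 14.8 (7.89 to 43.8) in oligodendrocyte-like nuclei. Its endothelial-like level rested on 35 UMIs over all libraries. In each of these 3 the ranges overlapped. The neuropilins, co-receptors for class 3 semaphorins and for vascular endothelial growth factor, had endothelial-like nuclei as their second class: Nrp1 lay at 367 CPM there and at 441 in hippocampal CA neuron-like nuclei marked by Ccbe1. Nrp2 lay at 265 CPM there and at 333 in neuron-like nuclei led by Erbb4 and Ddc. The leading genes of that class also include Slc6a3 and Slc18a2, transporters known from dopamine neurons, while its excitatory markers summed to 245 CPM and its inhibitory markers to 41.0.

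Oligodendrocyte-like nuclei, the myelin-forming glia, were highest for Plxnb3, Unc5b, Efnb3 and Ephb1. Plxnb3, a receptor for Sema5a, lay at 123 CPM (95.6 to 160), with 160 and 148 in control, 95.6 and 117 in BCAS, 158 and 112 in TBI, and 129 and 114 in BCAS+TBI. Its second class was the precursor of these cells at 42.6 CPM (29.2 to 63.1), and the next class reached 5.02 CPM. Both control libraries lay above both BCAS and both BCAS+TBI libraries, while TBI overlapped every other group. Plxnb3 passed in none of the contrasts below. All 8 libraries were above every precursor-like library. Of the Plxnb3 UMIs in classes, 465 of 668 (69.6%) lay in oligodendrocyte-like nuclei. All deposited barcodes together held 2167 Plxnb3 UMIs.

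Unc5b, a repulsive netrin receptor also known from vessels, lay at 156 CPM (101 to 207) in oligodendrocyte-like nuclei against 50.2 (35.9 to 58.8) in the Cadps2 and Megf10 inhibitory class and 43.0 in endothelial-like nuclei. Efnb3, a transmembrane ephrin, lay at 207 CPM (186 to 263) against 46.4 (25.4 to 62.2) in dentate granule neuron-like nuclei. Both were higher in all 8 libraries, with no overlap. Ephb1, a receptor for B ephrins, lay at 589.6 CPM (375 to 704) in oligodendrocyte-like nuclei and at 469.9 (364 to 578) in Drd1 striatal neuron-like nuclei, ranges that overlapped although all 8 libraries had the same order.

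Oligodendrocyte precursor-like nuclei were highest for 3 semaphorins: Sema5b, Sema3d and Sema6d. Sema5b lay at 289.6 CPM (217 to 372) against 172 (115 to 195) in Vip interneuron-like nuclei, without overlap. Sema3d lay at 372 CPM (298 to 442) against 279 (158 to 409) in fibroblast-like nuclei, and the next class reached 56.2 CPM. Sema6d lay at 1208 CPM in precursor-like and 1139 in astrocyte-like nuclei, within each other's range.

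Astrocyte-like nuclei formed 2 classes, marked by Aqp4 and by Slc6a11, and 6 genes were highest in one of them. Plxnb1, a receptor for Sema4d, lay at 186 CPM (153 to 209) in the Aqp4 class and 121 (84.6 to 151) in the Slc6a11 class, against 76.3 in mural-like nuclei. Its ligand Sema4d lay at 215 CPM (160.1 to 255) in microglia-like nuclei, the resident immune cells, and at 169.8 (155 to 227) in oligodendrocyte-like nuclei. The receptor was thus highest in 1 glial type and the ligand in another, as levels of RNA only. Sema4a lay at 105 CPM (97.6 to 150) in the Slc6a11 class and 97.8 (92.3 to 127) in the Aqp4 class, both above every library of the next class of another type, layer 6 corticothalamic neuron-like nuclei (68.8 CPM). Plxnb2, a plexin of the same B class, lay at 171 CPM (107 to 237) in microglia-like nuclei against 90.6 (34.4 to 206) in mural-like nuclei, and the ranges overlapped.

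**Figure D2:**
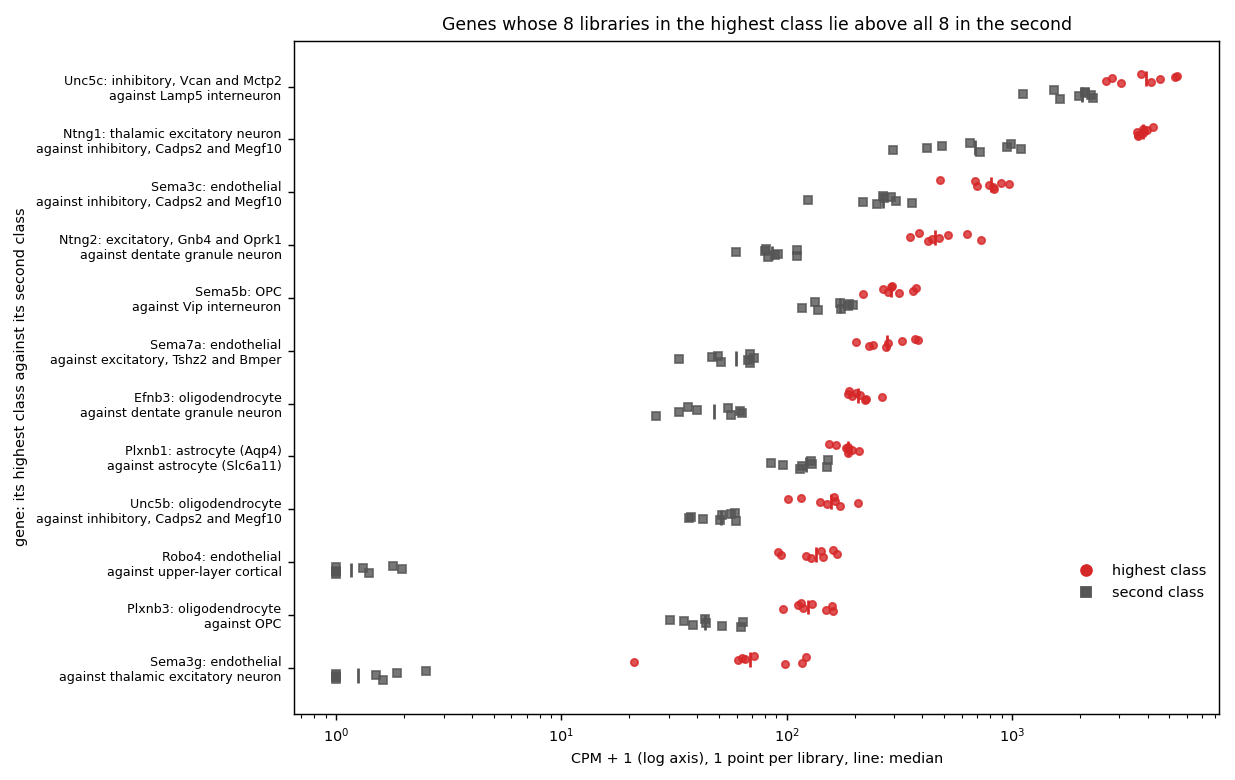
Level (CPM + 1, log axis) in each of the 8 libraries, in the highest class and in the second class, for the 12 genes whose ranges in those classes did not overlap. Robo4 and Sema3g show the widest gap, with second-class values at or near 0 CPM, and Plxnb1 and Sema5b the narrowest.

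Several ligands had their highest level in mural-like, choroid plexus-like, fibroblast-like or ependymal-like nuclei, with overlap with a second class. Netrin-1 (Ntn1) lay at 246 CPM (152 to 499) in mural-like nuclei, the contractile cells of vessels, and at 216 (203 to 241) in precursor-like nuclei, and was higher in the mural-like nuclei in 4 of 8 libraries. Netrin-4 (Ntn4), a netrin of basement membranes, lay at 119 CPM (92.9 to 163) in choroid plexus-like nuclei and at 118 (17.2 to 618) in mural-like nuclei. Its mural-like values rested on 1 to 35 UMIs per library. Sema3a, a secreted repellent, lay at 278 CPM (183 to 467) in fibroblast-like nuclei against 153 (53.8 to 225) in inhibitory neuron-like nuclei led by Ndst4 and Calb1.

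Slit2, a secreted ligand of Robo receptors, was highest in ependymal-like nuclei, the ciliated lining of the ventricles, at 1551 CPM (766 to 2349). The libraries gave 1702 and 1964 in control, 1262 and 2349 in BCAS, 1399 and 1883 in TBI, and 1398 and 766 in BCAS+TBI. The last value rested on 14 nuclei, and this class was too small to be tested between the groups. The second class, Pvalb interneuron-like nuclei, lay at 932 CPM (594 to 1126) and below the ependymal-like value in all 8 libraries, yet the ranges overlapped. The other Slits had their highest level in hippocampal neuron-like classes but were not confined to them. Slit3 lay at 1783 CPM (1479 to 2069) in dentate granule neuron-like nuclei and at 1507 (1153 to 1828) in CA neuron-like nuclei marked by Ror1. Excitatory neuron-like nuclei led by Arhgap6 and Dach1 held Slit3 at 1195 CPM. Slit1 lay at 338 CPM (259 to 458) and 296 (247 to 347) in the same dentate and CA classes. In layer 5 neuron-like nuclei marked by Vwc2l it lay at 263 CPM, with a highest library of 340, which overlapped the dentate range. By median, Slit1 and Slit3 thus shared their highest and second class, which Slit2 did not, although the ranges of those classes overlapped for both. Slit1 lay nearly as high in CA neuron-like nuclei marked by Ccbe1, at 295 CPM. The Slit receptors Robo1 and Robo2 exceeded 20 CPM in all 36 classes.

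Receptors of the Robo family differed in where they peaked. Robo1 lay at 3591 CPM (3191 to 3988) in thalamic neuron-like nuclei and 3357 (2439 to 4209) in inhibitory neuron-like nuclei led by Chst9 and Ankfn1. Robo2 lay at 1210.2 CPM (943 to 1378) in Drd1 striatal neuron-like nuclei and 1194 (747 to 1591) in Lamp5 interneuron-like nuclei. Robo3, which is known for commissural axons, lay at 193 CPM (147 to 324) in the neuron-like nuclei led by Erbb4 and Ddc against 83.1 (73.7 to 149.9) in upper-layer neuron-like nuclei. The ranges of highest and second class overlapped for all 3. Robo4 (chr9:37401897-37415115, plus strand) and Robo3 (chr9:37415669-37433246, minus strand) end 0.553 kb apart, tail to tail. Robo4 had no UMI in the class where Robo3 was highest, and Robo3 lay at 5.30 CPM in endothelial-like nuclei.

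Netrin-G ligands, lipid-anchored proteins of the synapse, marked 2 excitatory classes. Ntng1 lay at 3811 CPM (3581 to 4212) in thalamic neuron-like nuclei, with 3620 and 3631 in control, 3812 and 3581 in BCAS, 3862 and 3965 in TBI, and 3810.3 and 4212 in BCAS+TBI. The second class reached 686 CPM (296 to 1096), and 62.7% of the Ntng1 UMIs in classes lay in thalamic neuron-like nuclei. The classes held 106155 of the 175005 Ntng1 UMIs over all deposited barcodes. Ntng2 lay at 455 CPM (351 to 727) in excitatory neuron-like nuclei led by Gnb4 and Oprk1, against 85.0 (58.6 to 110.4) in dentate granule neuron-like nuclei. Neither gene overlapped between its highest and second class.

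Netrin receptors of neurons peaked in other classes again. Unc5c lay at 3945 CPM (2603 to 5422) in inhibitory neuron-like nuclei led by Vcan and Mctp2 against 2046 (1115 to 2280.0) in Lamp5 interneuron-like nuclei, without overlap. Unc5d lay at 2656 CPM (1578 to 3524) in inhibitory neuron-like nuclei led by Agbl1 and Zfpm2 and at 1882 (1277 to 2190.4) in the Vcan and Mctp2 class. Dcc, the attractive netrin receptor, lay at 3888 CPM (2750 to 4717) in layer 5 neuron-like nuclei marked by Vwc2l and at 2858 (2088 to 3236) in Drd1 striatal neuron-like nuclei. Only Unc5c among these 3 had ranges that did not overlap.

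Of the 9 EphA receptors 5, and of the 9 plexins 4, were highest in hippocampal or inhibitory neuron classes. Epha6 lay at 5657 CPM (4152 to 7839) in CA neuron-like nuclei marked by Ror1 against 3237 (2071 to 4777) in the Agbl1 and Zfpm2 inhibitory class. Epha7 lay at 1182 CPM (889 to 1530.2) in dentate granule neuron-like nuclei against 823 (523 to 1021) in the same CA class. Plexin-A4 (Plxna4), a semaphorin receptor, lay at 1228 CPM (909 to 1364) in dentate granule neuron-like nuclei, 781 (632 to 949) in Pvalb interneuron-like nuclei and 569 (388 to 789) in microglia-like nuclei. Ephrin-A5 (Efna5), a ligand of EphA receptors, lay at 794 CPM (544 to 997) in excitatory neuron-like nuclei led by Il1rapl2 and Hs3st2 and 772 (551 to 1101) in mid-layer neuron-like nuclei. All of these ranges overlapped between the highest and second class.

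Of 14 neighbouring pairs of members within 2 Mb, 1 pair (7.14%) had the same highest class, against 99 of all 2415 pairs of members (4.10%). It was Sema3b and Sema3f, both in choroid plexus-like nuclei, where Sema3b had 14 UMIs. The ephrin-A genes Efna1, Efna3 and Efna4 lie on chromosome 3 with gaps of 32.8 and 10.4 kb, and were highest in endothelial-like, CA neuron-like and astrocyte-like nuclei, although the last of these rested on 6 UMIs. Robo1 and Robo2, 846 kb apart on chromosome 16, were highest in thalamic and in striatal neuron-like nuclei.

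The groups were compared in the 30 classes where no library had under 20 nuclei. A pair is 1 gene in 1 class. The filter on low counts left 1053 pairs of 66 members, from 7 members in mural-like nuclei to 54 in a class, and left 4 members in no class. Of these pairs, 250 lay under 10% of the gene's level in its highest class. Counts were summed per library and class and tested with edgeR's quasi-likelihood test, two-sided, with p-values adjusted over all 230943 pairs of a contrast and a threshold of 0.05. Over 5 contrasts, 3 member pairs passed, each a different gene in a different class.

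With TBI, averaged over BCAS, 1 member pair passed, a fall of Dcc, against 0.0121% of all pairs (28 of 230943; 0.00433% higher and 0.00779% lower). Dcc (ENSMUSG00000060534) fell in layer 5 neuron-like nuclei marked by L3mbtl4, a class of 596 nuclei. It stood at 229 and 383 CPM in control, 427 and 366 in BCAS, 91.2 and 258 in TBI, and 214 and 97.8 in BCAS+TBI. The means were 165 ± 83.7 CPM in the 4 libraries with TBI and 351 ± 85.4 in the 4 without (SD, n = 4), and the values overlapped, since TBI 2 lay above control 1. The log2 difference was -1.08 (SE 0.16, edgeR adjusted p = 0.00259), with ratios of 0.288 in library set 1 and 0.630 in set 2.

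This class held Dcc at 6.26% of its level in the highest class, the other layer 5 neuron-like class, where Dcc did not pass in any contrast. In that class Dcc stood at 3136 and 4251 CPM in control, 3852 and 4687 in BCAS, 3925 and 4717 in TBI, and 3807 and 2750 in BCAS+TBI. The libraries with TBI overlapped those without. Both BCAS+TBI libraries lay below both TBI and both BCAS libraries, and control overlapped every other group. Only 3 genes passed in the L3mbtl4 class with TBI, and the other two also fell: Vwc2l by 0.96 on the log2 scale (SE 0.15, edgeR adjusted p = 0.00668) and Htr2c by 0.92 (SE 0.16, edgeR adjusted p = 0.0117). Vwc2l is the gene that marks the layer 5 class highest in Dcc, and the part of a shift between these classes in the Dcc result was not tested. The 6 layer 5 markers summed to 1126 to 1481 CPM over the 8 libraries of the L3mbtl4 class, below another class (2448 CPM). Without BCAS 1 the fall was -0.81 and no longer passed (edgeR adjusted p = 0.0533, with 3.37e-06 to 0.0533 over the 8 fits that leave out a library). With nuclei sorted by their own markers in place of clusters it was -0.35 and did not pass, nor did it pass without the library set term or in DESeq2 (adjusted p of 1 in each).

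Slit2 in upper-layer cortical neuron-like nuclei lay just outside the threshold for TBI. It stood at 377 and 309 CPM in control, 374 and 242 in BCAS, 208 and 222 in TBI, and 205.3 and 205.5 in BCAS+TBI. All 4 libraries with TBI lay below all 4 without. The log2 difference was -0.58 (SE 0.10, edgeR adjusted p = 0.0544), with ratios of 0.550 in set 1 and 0.777 in set 2. This class held Slit2 at 14.98% of its ependymal-like level.

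At an unadjusted p under 0.05, 82 member pairs (7.79%) differed with TBI, 33 higher and 49 lower, against 4.46% of all pairs. The median log2 difference was -0.02 over member pairs and 0.00 over all pairs. Among families, EphA receptors had 20 of 162 pairs at that level (6 higher, 14 lower), Slits 11 of 73 (6 higher, 5 lower) and netrin-Gs 9 of 39 (6 higher, 3 lower). Class 4 semaphorins had 1 of 83, plexins 3 of 127, ephrin-Bs 1 of 34 and netrins 1 of 27.

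With BCAS, averaged over TBI, 1 member pair passed, a rise of Epha3, against 0.0156% of all pairs (36 of 230943; 0.0117% higher and 0.0039% lower). Epha3 (ENSMUSG00000052504, chr16:63543534-63864175, minus strand), a receptor for A ephrins, rose in inhibitory neuron-like nuclei led by Ndst4 and Calb1. It stood at 119 and 96.8 CPM in control, 194 and 345 in BCAS, 180.5 and 163 in TBI, and 252 and 253 in BCAS+TBI. All 4 libraries with BCAS lay above all 4 without, at 261 ± 62.4 against 139.9 ± 38.5 CPM (SD, n = 4). The log2 difference was 0.98 (SE 0.19, edgeR adjusted p = 0.0303), with ratios of 1.49 in set 1 and 2.30 in set 2.

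The class is small, with 28 to 88 nuclei per library, and held Epha3 at 27.0% of its highest class. Kcnip4, which encodes a potassium channel interacting protein, was the only other gene that passed in this class with BCAS (log2 1.34, SE 0.18, edgeR adjusted p = 8.52e-05). The 5 markers of Sst interneurons, all detected, summed to 967 and 1187 CPM in control, 2510.2 and 1423 in BCAS, 2459 and 1872 in TBI, and 1861 and 2664 in BCAS+TBI. Control was thus lowest in that list, and its part in the Epha3 result was not tested. The call was lost without control 2 (log2 0.77), BCAS 2 (0.68), TBI 2 (0.84), BCAS+TBI 1 (1.05) and BCAS+TBI 2 (0.95), at edgeR adjusted p-values of 0.0635 to 0.926, within a range of 6.77e-05 to 0.926 over all 8. It was also lost with doublets kept (0.92, edgeR adjusted p = 0.0962), without the library set term and in DESeq2 (adjusted p of 1 in both).

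At an unadjusted p under 0.05, 76 member pairs (7.22%) differed with BCAS, 32 higher and 44 lower, against 3.79% of all pairs, with a median log2 difference of -0.02 against 0.00. Membrane semaphorins of classes 5 to 7 had 9 of 133 pairs at that level, 8 of them higher. Slits had 11 of 73, 8 of them lower. No pair of these families passed the adjusted threshold.

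**Figure D3:**
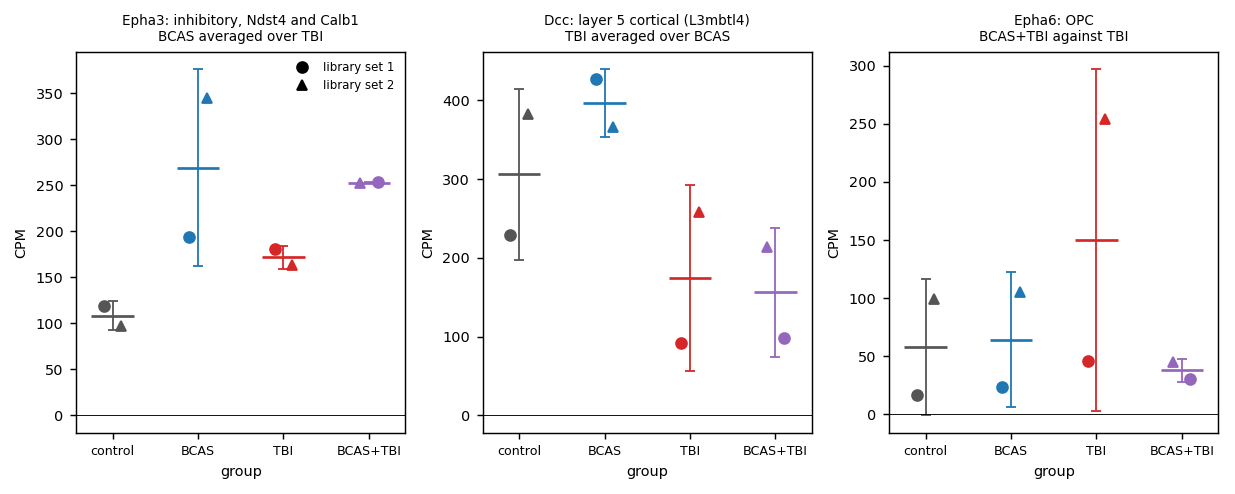
Level (CPM) per library in the 4 groups for the 3 pairs that passed: Dcc in layer 5 neuron-like nuclei marked by L3mbtl4, Epha3 in the Ndst4 and Calb1 inhibitory class, and Epha6 in oligodendrocyte precursor-like nuclei. Circles are library set 1, triangles set 2, bars the mean ± SD of 2 libraries; TBI 2 stands alone at 254 CPM for Epha6.

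Between BCAS+TBI and TBI, which asks whether hypoperfusion changes the outcome of injury, 1 member pair passed, a fall of Epha6, against 0.0199% of all pairs (46 of 230943; 0.016% higher and 0.0039% lower). Epha6 (ENSMUSG00000055540, chr16:59653483-60605531, minus strand) fell in oligodendrocyte precursor-like nuclei. It stood at 45.9 and 254 CPM in TBI and 44.99 and 30.7 in BCAS+TBI, with 16.4 and 99.0 in control and 23.4 and 105 in BCAS. The log2 difference was -2.05 (SE 0.34, edgeR adjusted p = 0.00700). The groups did not overlap, but TBI 1 and BCAS+TBI 1 differed by under 1 CPM, and the ratio was 0.668 in set 1 and 0.177 in set 2.

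These values rested on 4 to 90 UMIs per library and on 0.803% of the Epha6 level in its highest class, hippocampal neuron-like nuclei. Some neuron markers in the same precursor-like nuclei were highest in TBI 2: the 2 excitatory markers summed to 36.9 to 87.4 CPM over libraries and the 5 Pvalb interneuron markers to 49.8 to 200.3, with the highest value of each in TBI 2. The 3 general inhibitory markers summed to 65.2 to 129, with 113 in TBI 2 and the highest value in BCAS 2. The Sst, Drd2 striatal and layer 6b lists were also highest in TBI 2, and the remaining neuron lists were not. Upper-layer markers were lowest in TBI 2 (564 CPM), and hippocampal CA markers stood at 2194 in TBI 2 and 2313 in BCAS 2. The part of neuronal RNA in the Epha6 result was not tested. With doublets kept the difference was -0.25 and with nuclei sorted by their own markers -0.74, and neither passed. Without TBI 2 it was -1.48 (edgeR adjusted p = 0.768) and without BCAS+TBI 1 -0.60 (edgeR adjusted p = 0.934), in a range of 8.07e-07 to 0.934 over the 8 fits that leave out a library. It did not pass without the library set term or in DESeq2 (adjusted p of 1 in both). Kcnip4 also fell in this class (log2 -1.80, SE 0.25, edgeR adjusted p = 0.000327) and Itih3 rose (6.84, SE 1.24, edgeR adjusted p = 0.0205).

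At an unadjusted p under 0.05, 88 member pairs (8.36%) differed between BCAS+TBI and TBI, 29 higher and 59 lower, against 4.13% of all pairs. The median log2 difference was -0.04 against 0.00. This comparison and BCAS+TBI against control share the BCAS+TBI libraries.

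Between BCAS+TBI and control no member pair passed in edgeR or in DESeq2, against 0.0121% of all pairs in edgeR (0.0065% higher and 0.00563% lower). At an unadjusted edgeR p under 0.05, 86 member pairs (8.17%) differed, 33 higher and 53 lower, against 3.99% of all pairs. The smallest p-value was that of Unc5d, a repulsive netrin receptor, in Sst interneuron-like nuclei, at 273 and 515 CPM in control and 814 and 741 in BCAS+TBI, with 566 and 434 in BCAS and 498 and 670.1 in TBI. The log2 difference was 0.96 (SE 0.19, edgeR adjusted p = 0.116), and it was -0.02 with nuclei sorted by their own markers. Slit2 in upper-layer neuron-like nuclei followed at -0.72 (SE 0.14, edgeR adjusted p = 0.168) and Epha3 in the Ndst4 and Calb1 class at 1.28 (SE 0.30, edgeR adjusted p = 0.251). With a library left out, Unc5d ran from 0.64 (without control 1) to 1.48 (without control 2), and passed without control 2, BCAS 1, BCAS 2 or TBI 1 (edgeR adjusted p = 0.000338 to 0.840 over the 8). Slit2 passed without BCAS 1 or BCAS 2 (0.0350 to 1 over the 8), and Epha3 passed without BCAS 1 (0.0188 to 0.994 over the 8).

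The interaction asks whether the change with TBI differs between mice with and without BCAS. No member pair passed in edgeR or in DESeq2, against 0.0121% of all pairs in edgeR (0.00346% positive and 0.00866% negative). At an unadjusted edgeR p under 0.05 there were 118 member pairs (11.2%), 44 positive and 74 negative, against 4.66% of all pairs. The smallest p-values were those of Epha7 in precursor-like nuclei (log2 -2.66, SE 0.58, edgeR adjusted p = 0.137), Epha6 in the same nuclei (-2.21, SE 0.50, edgeR adjusted p = 0.184) and Unc5d in layer 6 corticothalamic neuron-like nuclei (-1.27, SE 0.28, edgeR adjusted p = 0.313). Epha7, a receptor for A ephrins, stood at 16.4 and 35.5 CPM in control, 18.8 and 120.4 in BCAS, 43.0 and 84.6 in TBI, and 42.7 and 15.3 in BCAS+TBI, from 4 to 56 UMIs. Without BCAS 2 the Epha7 value was -1.30, and with doublets kept -1.73. It passed without control 1, BCAS 1 or BCAS+TBI 2 (edgeR adjusted p = 0.0223 to 0.03004, in a range of 0.0223 to 1 over the 8 fits that leave out a library). The Epha6 value was -0.74 without BCAS+TBI 1, -0.67 with doublets kept and -0.29 with nuclei sorted by their own markers, and it passed without BCAS+TBI 2 (-2.65, edgeR adjusted p = 0.00184, in a range of 0.00184 to 1). Unc5d passed without BCAS 1 (-1.44, edgeR adjusted p = 0.0424, in a range of 0.0424 to 1). Both Eph receptors were measured in precursor-like nuclei at 3.31% and 0.803% of their highest class. Unc5d in the layer 6 class was likewise at 3.64% of its highest class. It stood there at 90.7 and 68.5 CPM in control, 112 and 125 in BCAS, 148 and 102 in TBI, and 88.8 and 64.1 in BCAS+TBI.

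In the class where each gene was highest among those tested, none of the 66 members passed in any of the 5 contrasts in edgeR. At an unadjusted p under 0.05 there were 6 with TBI, 3 with BCAS, 5 when BCAS+TBI was set against control, 7 when it was set against TBI, and 6 for the interaction. These are 9.09%, 4.55%, 7.58%, 10.6% and 9.09% of the 66, against 4.46%, 3.79%, 3.99%, 4.13% and 4.66% of all pairs. The log2 differences ran from -0.87 to 0.82 with TBI (median -0.04) and from -0.75 to 0.30 with BCAS (median -0.04). The smallest p-value was that of Robo2 in Lamp5 interneuron-like nuclei with TBI (log2 -0.47, SE 0.12, edgeR adjusted p = 0.242). Robo2 stood there at 1179 and 1550.4 CPM in control, 1209 and 1591 in BCAS, 915 and 1258 in TBI, and 1142 and 747 in BCAS+TBI. The libraries with TBI overlapped those without, although both BCAS+TBI libraries lay below both control and both BCAS libraries. The vessel and myelin genes whose promoter stretches are shown, Robo4, Sema3g, Plxnb3 and Unc5b, were among the 66 and did not pass.

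**Figure D4:**
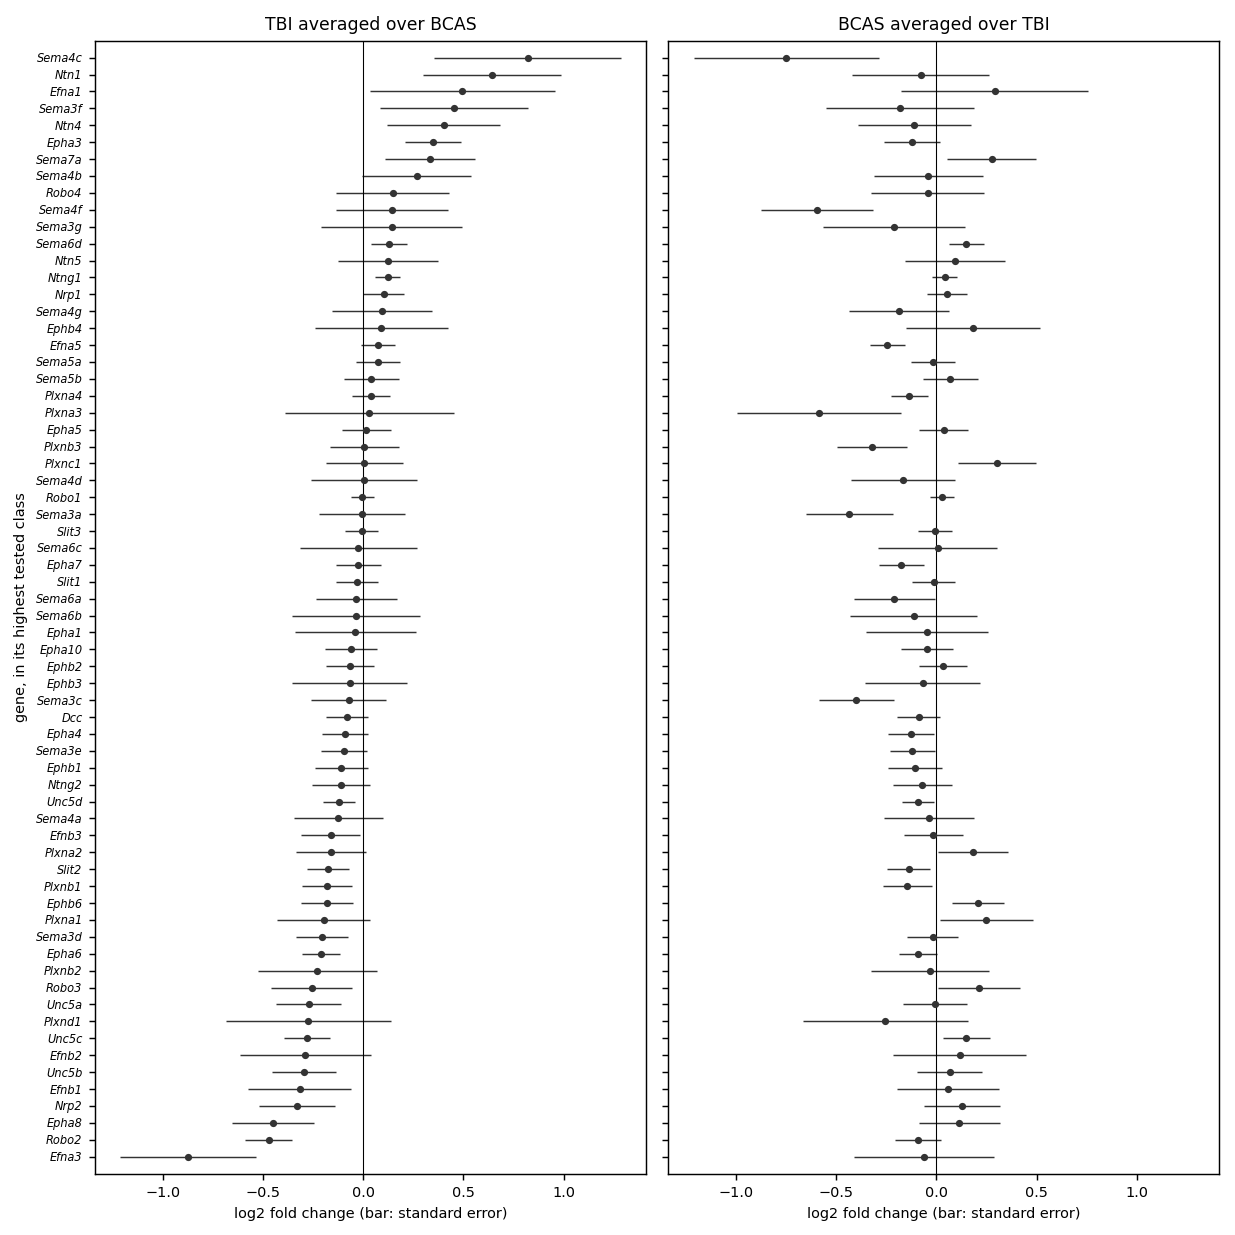
Log2 difference ± SE for each of 66 genes in its highest tested class, with TBI (averaged over BCAS) and with BCAS (averaged over TBI), from edgeR. Values run from -0.87 to 0.82 with TBI and from -0.75 to 0.30 with BCAS, and no gene passed the threshold in either.

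The pairs named for reasons other than their p-values did not pass. Ntn4 in mural-like nuclei stood at 26.9 and 405 CPM in control, 82.8 and 152 in BCAS, 618 and 407 in TBI, and 17.2 and 32.8 in BCAS+TBI. The difference between BCAS+TBI and TBI was -4.39 on the log2 scale (SE 0.89, edgeR adjusted p = 0.290) and rested on 1 UMI in each BCAS+TBI library. Epha3 in fibroblast-like nuclei stood at 283 and 236 CPM in control, 378 and 210.3 in BCAS, 112 and 98.5 in TBI, and 211 and 170.4 in BCAS+TBI, a log2 difference of -0.92 with TBI (SE 0.21, edgeR adjusted p = 0.433). Slit2 in precursor-like nuclei differed by -0.78 with TBI (SE 0.30) and Efna5 there by -1.02 with BCAS (SE 0.45), and neither passed.

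Other genes of the pathways were read from 2 lists. Of 24 partner proteins outside the rule (Neo1, Dscam, Rgma, Flrt2, Rtn4 and others), 23 were tested in 526 pairs, and none passed in any of the 5 contrasts. At an unadjusted edgeR p under 0.05 there were 25 with TBI (8 higher, 17 lower) and 25 with BCAS (13 higher, 12 lower). Both are 4.75%, against 4.46% and 3.79% of all pairs. There were 29 when BCAS+TBI was set against control (5.51%, against 3.99% of all pairs). When it was set against TBI there were 26 (4.94%, against 4.13%), and for the interaction 30 (5.70%, against 4.66%). Of 49 intracellular mediators (Srgap2, Fyn, Pak1, Dpysl2, Rac1 and others), all were tested, in 1157 pairs, and none passed either. There the unadjusted counts were 43 with TBI (28 higher, 15 lower), 31 with BCAS (12 higher, 19 lower), 36, 30 and 51. These are 3.72%, 2.68%, 3.11%, 2.59% and 4.41% of the mediator pairs, each below the share over all pairs.

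Between the library sets, by contrast, members differed widely. In 373 of 1053 member pairs the level was higher in set 2 and in 12 it was higher in set 1, against 12.2% and 15.9% of all pairs in those directions. The median log2 difference was 0.34 over member pairs and 0.00 over all pairs. Robo pairs were higher in set 2 in 45 of 69, Unc5 and Dcc pairs in 64 of 103, EphA pairs in 73 of 162 and ephrin-B pairs in 0 of 34. Long genes carried most of it: of pairs of members over 100 kb, 356 of 757 (47.0%) were higher in set 2, against 17 of 296 (5.74%) for shorter members, and over all pairs the shares were 35.3% and 5.42%. Of the 70 members 33 (47.1%) were over 100 kb, against 15.8% of the genes tested. Both sets hold a library of every group, so this difference is balanced over the groups, and its cause was not tested.

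**Figure D5:**
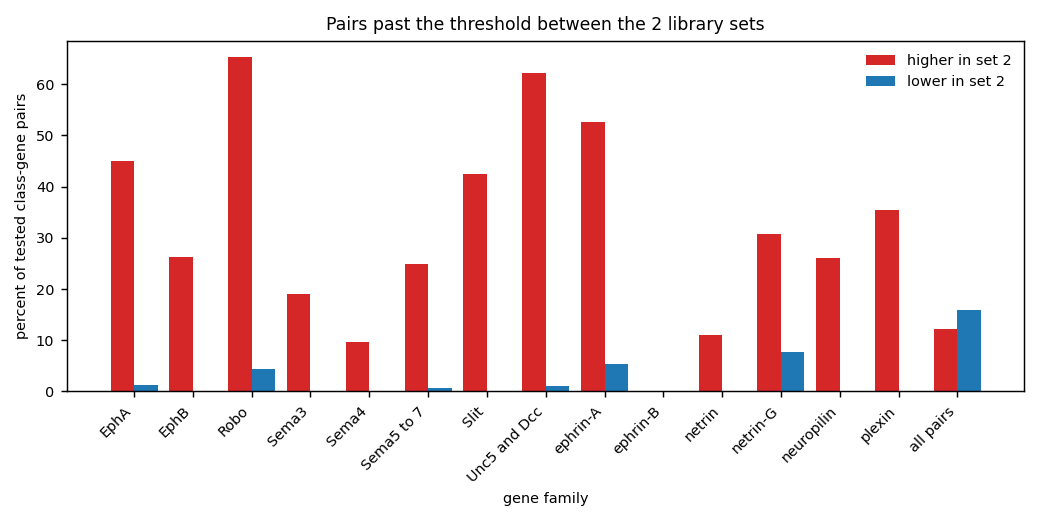
Percentage of pairs of each family, and of all pairs, that were higher or lower in library set 2 than in set 1 at an edgeR adjusted p under 0.05. Robo (45 of 69 pairs higher) and Unc5 and Dcc (64 of 103) have the tallest bars, and ephrin-B has none.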

How the data were processed

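Single-nucleus RNA was measured in 8 libraries, 2 in each of 4 groups taken from the sample titles. The authors deposited a matrix of raw UMI counts for each library, and the file headers name Cell Ranger 7.0.0. The submitters' processing notes name GRCm38, mm10 and Seurat. Whether introns were counted is not given in the sources used here. The members, gene lists and markers were chosen with earlier results of these data known.

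Barcodes under 500 UMIs or 300 genes, or above 5% mitochondrial UMIs, were dropped (4922 of 53390). Scrublet's own threshold marked 0 to 4 barcodes in 7 libraries and 734 in control 1, so the 6% with the highest scores per library (3152) were removed. The remaining 45316 nuclei were clustered with scanpy 1.11.5 (3000 variable genes without members or pathway genes, 30 components, 15 neighbours, Leiden at resolution 1, Python 3.11.15), giving 35 clusters, 60 after splitting 4. Clusters were named from fixed markers. Nuclei above 3 times the median depth of the class in that library were left out (1445, of which 461 were in named clusters), and of the 43871 used 10746 (24.5%) stayed unnamed.

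Counts were summed per library and class. edgeR 4.0.16 (R 4.3.3; TMM, filterByExpr with a minimum count of 10) fitted 4 groups and the library set, and p-values were adjusted by Benjamini and Hochberg over all class-gene pairs of a contrast. The script was tested on simulated data. Named are every member pair past the threshold, in a contrast with none the 3 with the smallest p-values, in each family up to 4 members with the largest ratio of the highest to the third class, and Slit2, Efna5, Ntn4 and Epha3. Other genes lie in a counted group. Slit2 for TBI, Robo2 and the genes that passed beside a member were chosen after their values were seen. Alternatives were no set term, the replicate number as a block, DESeq2 1.42.0, RLE factors, no count filter, high-UMI nuclei or doublets kept, nuclei gated by their own markers, a free RNA filter and leaving out each library. Same-numbered libraries deviated together in 3 groups and oppositely in BCAS+TBI, so the numbers were not taken as pairs. Gene coordinates and promoters are RefSeq's or the annotation's on GRCm38.p6, the build the notes name.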

Additional observations from a re-analysis of the deposited data

Results flagged for a closer look

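Of 28 sets of 4 libraries (with or without a surgery) examined for the named pairs, 2 held a library far from the other 3 by Dixon's gap test, which chance would do in about 1 in 20 sets. Epha6 in oligodendrocyte precursor-like nuclei stood at 254 CPM in TBI 2, against 30.7 to 45.9 in the other 3 libraries with TBI. Slit2 in upper-layer cortical neuron-like nuclei stood at 222 CPM in TBI 2, against 205 to 208 in the other 3, a small gap in a narrow range that still lay below every library without TBI.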

How the results depend on the processing

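The calls of member pairs depended on the processing. In the order TBI, BCAS, BCAS+TBI with control as reference, BCAS+TBI with TBI as reference, and interaction, 1, 1, 0, 1 and 0 member pairs passed. Without the library set term, and in DESeq2, the counts were 0 in all 5. With the replicate number as a block (replicate block) they were also 0 in all 5. Same-numbered libraries of control, BCAS and TBI deviated together (correlations of 0.752 to 0.861), and those of BCAS+TBI deviated the opposite way (-0.906 to -0.806). The library sets equal the numbers with BCAS+TBI 1 and 2 exchanged. The labels do not say whether numbers pair libraries, so whether those 2 numbers are crossed cannot be told. Without a filter on low counts the counts were 9, 4, 5, 5 and 3, and with high-UMI nuclei kept 2, 2, 1, 4 and 6. With doublets kept they fell to 0 for BCAS and for BCAS+TBI against TBI. With nuclei gated by their own markers they were 0 for BCAS and BCAS+TBI against TBI and 1 for the interaction. Gating gave no Ndst4 and Calb1 class, so the Epha3 pair was not tested there and could not pass. The free RNA filter gave 0 for TBI and for BCAS+TBI against TBI. It leaves out pairs under 10% of the gene's highest class, among them Dcc in the L3mbtl4 class and Epha6 in precursor-like nuclei. Those pairs could thus not pass under it. RLE factors changed none of the 5. Leaving out each library gave 1 to 6, 0 to 3, 1 to 5, 1 to 3 and 0 to 4. Over all pairs 28, 36, 28, 46 and 28 passed. They were 0 without the set term and with the block, 5, 5, 5, 7 and 0 in DESeq2, 326, 324, 307, 306 and 330 without the filter, 53, 10, 37, 0 and 20 with gated nuclei, 34, 39, 32, 83 and 126 with high-UMI nuclei, 21, 27, 17, 29 and 2 with the free RNA filter, and 65 to 130, 45 to 148, 52 to 120, 35 to 171 and 33 to 201 with a library left out. Of 145 alternative values of the named pairs, 144 kept the direction; Unc5d in Sst interneuron-like nuclei was reversed, at -0.017, with gated nuclei. The causes were not tested. Over the 30 tested classes, the highest class was the same for 58 to 66 of 70 members with a library left out, 64 with high-UMI nuclei kept and 66 with doublets kept. With gated nuclei it was the same for 56, over the 15 classes that both ways of sorting share. The remaining settings were not run for this value. The filter on low counts left 7 members to test in mural-like, 10 in microglia-like and 11 in choroid plexus-like nuclei.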

Other observations

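Some partner proteins and mediators outside the rule also differed between cell types. In oligodendrocyte-like nuclei the cell adhesion protein Cntn2 lay at 520.4 CPM against 62.2 in the second class, the myelin inhibitor Rtn4 at 1324 against 416, the netrin and repulsive guidance receptor Neo1 at 564 against 414, and the kinase Pak1 at 1034 against 282. In oligodendrocyte precursor-like nuclei Dscam, a netrin receptor, lay at 3392 CPM against 1289, and the kinase Fyn at 547 against 227. Srgap2, which acts downstream of Robo receptors, lay at 2999 CPM in microglia-like nuclei against 819.6 in endothelial-like nuclei, and the kinase Fes at 85.9 against 17.4. Ablim1, an actin-binding protein, lay at 1341 CPM in endothelial-like nuclei against 627. For each of these genes the ranges over the 8 libraries of the highest and second class did not overlap, as was also the case for L1cam, Chl1 and Lingo1 in neuron classes. For all other genes in the lists of 24 partners and 49 mediators these ranges overlapped.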
